A study of Mus musculus with 15 samples.

Results

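The genes described here are 38 liver-made components of the complement, coagulation, kinin and fibrinolysis systems, chosen by symbol from 20325 genes in the files. All 38 were present, and all 38 passed the filter on low counts among 12368 genes tested. RNA was measured in livers of male C57BL/6J mice, an inbred laboratory strain, aged 19 weeks; the 15 libraries fell into 5 groups of 3 mice. Germ-free (GF) mice lived without microorganisms, and conventionally raised (ConvR) mice carried a microbiota, each on chow and on a high-fat, high-sucrose diet (HF/HS) given from 3 weeks of age. Conventionalized (ConvD) mice ate chow, were GF up to 15 weeks, and then received a single oral gavage of cecal contents from chow-fed ConvR donors and were sampled 4 weeks later. Fat, carbohydrate and protein supplied 23.7%, 53.2% and 23.1% of energy in chow, and 44.6%, 40.6% and 14.8% in HF/HS. Mice were kept by group, GF and ConvR mice in separate isolators and ConvD mice in filter-top cages, so that effects of isolator or cage and of group cannot be told apart.

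Complement is a chain of plasma proteases and binding proteins that tags microbes. The lectin and classical pathways recognise surfaces and cleave C4 and C2, the alternative pathway amplifies cleavage of C3, and the terminal components assemble a pore in the target membrane. Coagulation factors are mostly protease precursors that converge on thrombin, which turns fibrinogen into fibrin, while plasmin dissolves it. Hepatocytes secrete most of these proteins, and several, fibrinogen and C3 among them, are known acute phase proteins whose synthesis rises during inflammation under interleukin-6 and related cytokines.

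Levels of these genes spanned a wide range. On the deposited TPM scale, which divides by gene length, the highest means over the 15 libraries belonged to the fibrinogen chains, at 5130.0 TPM for Fgb, 4207 for Fgg and 3242 for Fga, followed by C3 at 2151 TPM. In all, 8 members averaged over 1000 TPM and 3 under 50 TPM, the latter being Masp1 at 49.1, Pros1 at 26.0 and Cfd at 4.65 TPM. Together the 38 genes took 3.22% to 6.92% of the counts of a library. Estimated counts totalled 14737578 to 21794811 per library. Alb, the albumin gene and a defining hepatocyte marker, took 2.86% to 9.50% of counts, and markers of platelets and megakaryocytes summed to 1.82 to 3.07 CPM (counts scaled to the size of the library) in the 15 libraries.

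The livers of ConvR chow mice 1 and 2 stood apart from the other 13. They held the 2 highest of 15 CPM values for 19 of the 38 members, among them all 3 fibrinogen chains, all 3 complement inhibitors and 3 of 6 terminal components. For 17 of these 19, ConvR chow mouse 3 lay within or under the CPM range of the other 12 libraries. On TPM, mice 1 and 2 were not the 2 highest for Cfi, F7, F9, Plg and Kng1 among the 19. Acute phase genes moved with these libraries: 15 such genes, members not included, took 10.3%, 12.4% and 1.39% of TPM in ConvR chow mice 1, 2 and 3 and 0.826% to 1.21% in the 12 mice of other groups. Saa2, a serum amyloid A gene, was at 9884, 12789 and 695 CPM in these 3 mice. Neutrophil markers summed to 3.68 to 32.7 CPM in ConvR chow and 0.990 to 7.91 CPM in the other groups. Their part in the results was not tested, and called differences of members from ConvR chow mice are also given with mouse 3 as the lone ConvR chow liver, assumed to vary like the other groups. At the other end, a ConvR HF/HS library had the lowest of 15 CPM values for 28 members, and it was ConvR HF/HS mouse 2 for 24 of them. On TPM, C2, C8b and F11 kept a ConvR HF/HS library lowest, but Fgb and Fgg were lowest in GF chow mouse 3. C3, Plg and Kng1 were then lowest in ConvR chow mouse 3. Rankings of single livers below are on CPM, and some differed on TPM. The counts of 28 and 19 were not made over all genes.

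**Figure D1:**
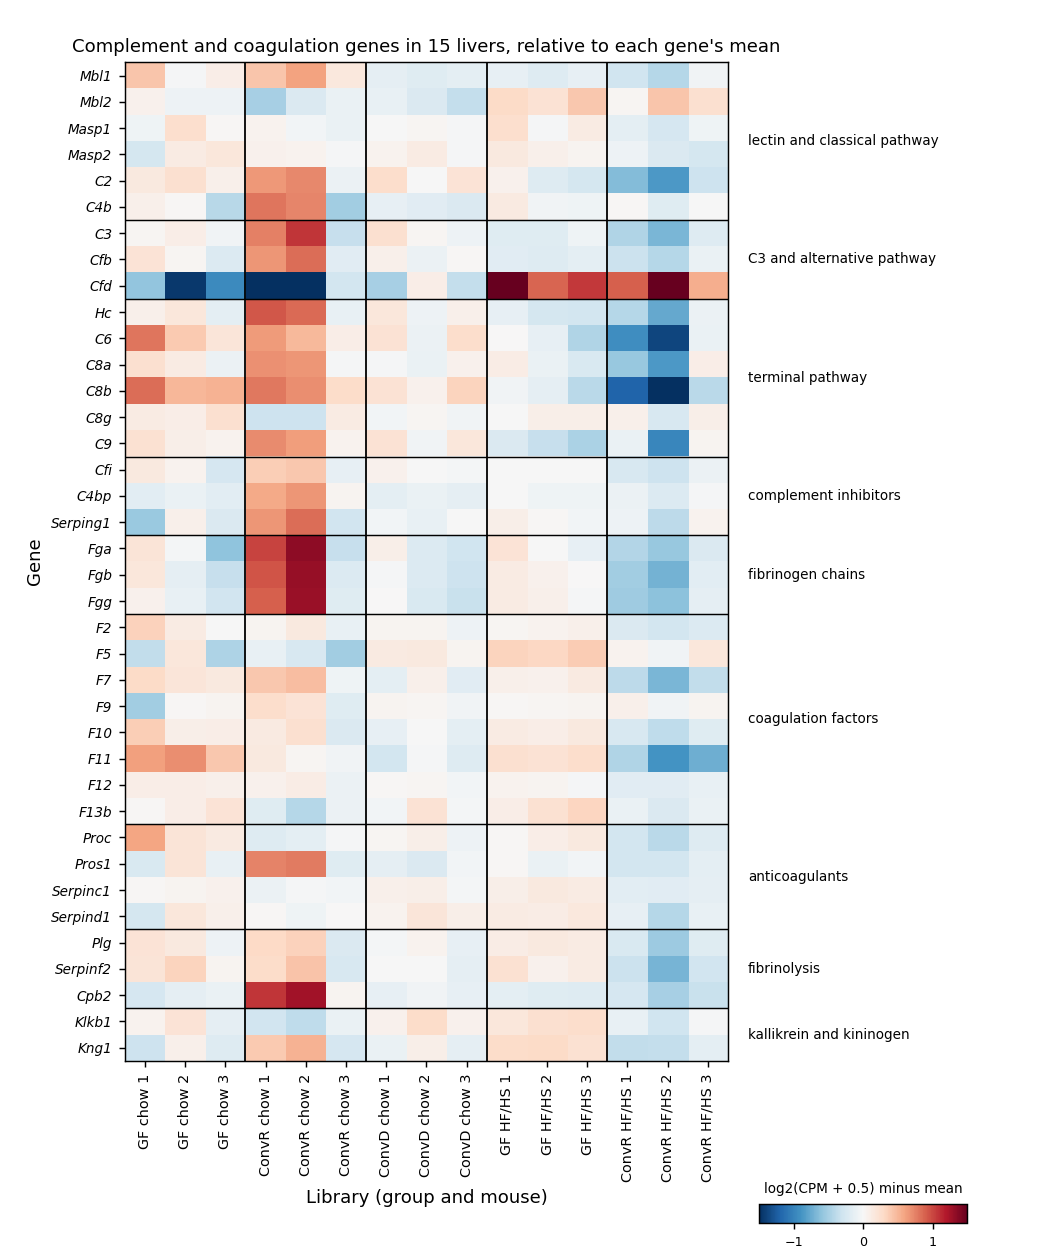
Each row is 1 of the 38 genes, ordered by role, and each column 1 of the 15 livers; colour gives log2(CPM + 0.5) minus the mean of the gene, from blue (lower) to red (higher), and values past the ends of the scale take the end colours. The red block lies in ConvR chow mice 1 and 2, which held the 2 highest CPM values for 19 genes. Blue prevails in ConvR HF/HS mice, 1 of which had the lowest CPM for 28 genes. On TPM some of these ranks differed.

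Of the 7 comparisons, HF/HS against chow in ConvR mice changed the most members: 20 fell and 2 rose, while 16 did not pass the test. A gene is said to have risen, fallen or changed where its adjusted p was under 0.05 in the quasi-likelihood test of edgeR, adjusted over all genes tested by the Benjamini-Hochberg method, which gives the adjusted p values throughout; values after ± beside a log2 fold change are standard errors, with n = 3 mice per group. Those 22 stood against 7.78% of all genes falling and 6.77% rising. The median log2 fold change was -0.55 over the members and -0.02 over all genes, and 32 of 38 estimates were negative. Terminal components fell in 5 of 6 cases and fibrinogen chains in 3 of 3, and the largest decreases were those of C8b, Fgb, Cpb2, Fga and Fgg. Other lists fell in this comparison too: 13 of 15 acute phase genes (median -2.27), 3 of 3 tested neutrophil markers (median -3.28) and 2 of 10 hepatocyte markers (median -0.26). In these 3 lists 0 genes rose, and 0 of 7 Kupffer cell markers passed. Of 7 endothelial markers, 3 rose with HF/HS in ConvR mice (median 0.35) and 4 in GF mice (median 0.47). The endothelial list summed to 208 to 281 CPM in the chow groups and 281.0 to 337 CPM in the HF/HS groups. The part of these lists in the result was not tested. Bulk liver RNA cannot tell fewer cells of a type from less RNA per cell.

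Without ConvR chow mice 1 and 2, which leaves 1 liver in that group, 0 of 38 members passed the edgeR test (10 at an unadjusted p under 0.05), and the median log2 fold change was -0.12. The sizes of the changes were not all affected alike: Fga went from -1.23 to -0.06, whereas F11 went from -0.72 to -0.63 (adjusted p = 0.0577) and C8b from -1.67 to -1.34 (adjusted p = 0.0835). Without mouse 1, 10 passed, without mouse 2, 9 passed, and without mouse 3, 27 passed. In the same order the member medians were -0.48, -0.39 and -0.76, against -0.01 over all genes each time. The share of all genes called in these settings is not given here, so a loss of calls in the members alone cannot be told from a general one. On the other side, 14 passed without ConvR HF/HS mouse 1 and 7 without ConvR HF/HS mouse 2, and 6 where the 2 groups were fitted alone. On log2(TPM + 1), the median of all genes was 0.30 and that of the members -0.13, and 9 members fell while 10 rose; 11 of the 22 called on counts were called there too, and none of the 22 reversed sign.

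**Figure D2:**
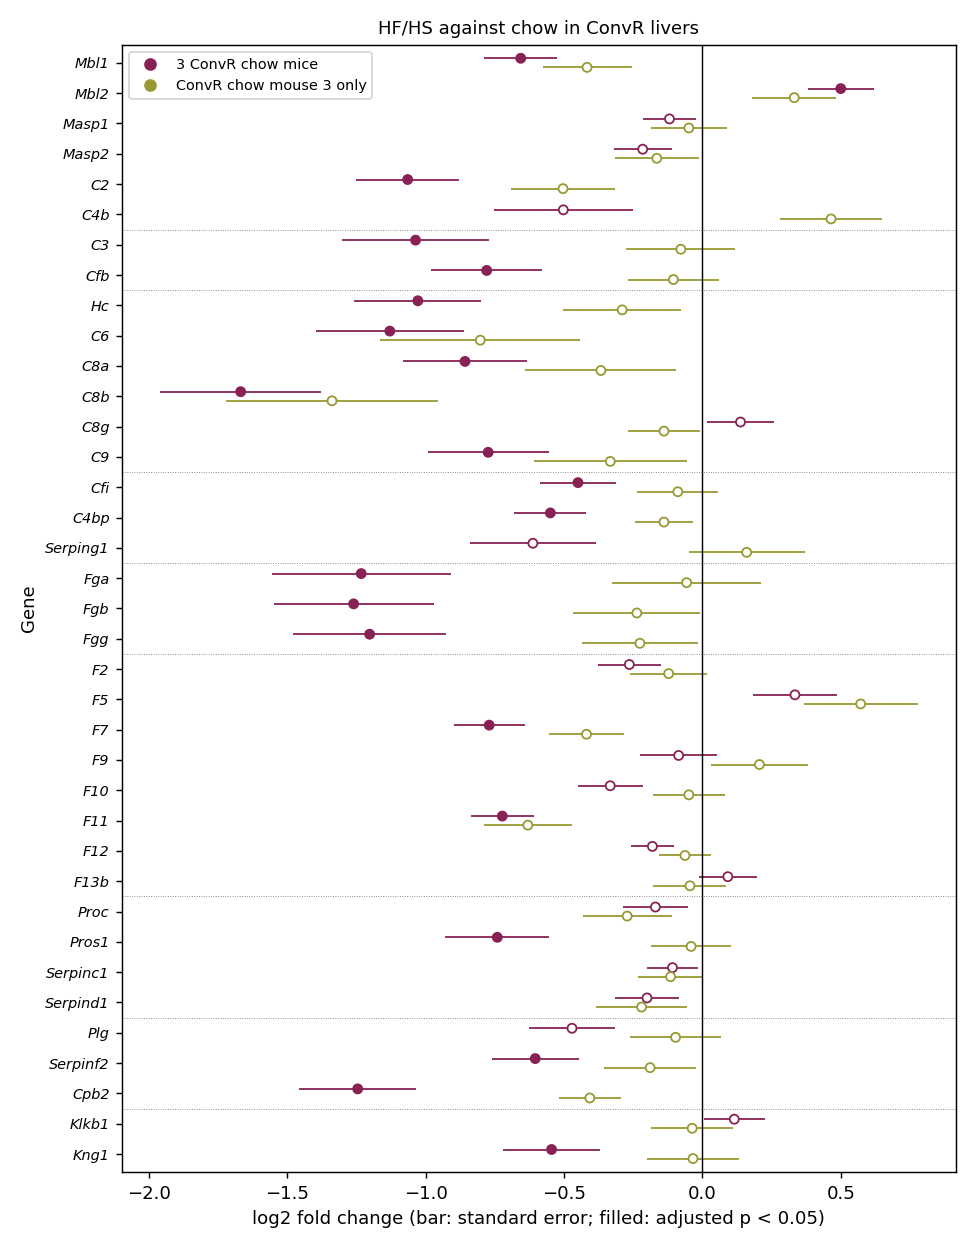
Log2 fold change of HF/HS over chow in ConvR livers with its standard error, for the members other than Cfd, from all 3 ConvR chow mice (dark) and from ConvR chow mouse 3 alone (olive); filled points had an adjusted p under 0.05. With mouse 3 alone no point is filled, Fga moves from -1.23 to -0.06, and C8b moves from -1.67 to -1.34.

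In GF mice, with the same change of diet, 2 of 38 members rose, against 4.12% of all genes, and 0 fell, against 5.45%. For a list of 38 genes these counts were not far from the shares over all genes. Those that rose were Cfd (3.56 ± 0.73, adjusted p = 0.0114) and F5 (0.54 ± 0.15, adjusted p = 0.0399), the cofactor of factor X in the prothrombinase complex. At an unadjusted p under 0.05 there were 9 of 38 members and 3243 of 12368 genes. DESeq2 called 2 members higher and 2 lower. The median log2 fold change was -0.003 for the members and -0.009 for all genes. Without GF HF/HS mouse 1, 0 members passed, and without ConvR HF/HS mouse 3, a mouse outside this comparison, 4 did. The interaction of diet with ConvR or GF status, which tests whether the diet's effect differed between them, was called for 0 of 38 members and for 0% of all genes in either direction. It reached an unadjusted p under 0.05 for 17 of 38 members and 1572 of 12368 genes in edgeR. DESeq2 called 4, limma on log2(TPM + 1) called 1, and 16 were called by edgeR without ConvR chow mouse 3. For diet in GF mice and for the interaction, shares of all genes called in such other settings are not given here. Shifts in these member counts therefore cannot be told from shifts over all genes. The smallest adjusted p was that of Cpb2 (-1.23 ± 0.30, adjusted p = 0.175), and Fgb followed with -1.42 ± 0.41, adjusted p = 0.214; with mouse 3 as the lone ConvR chow liver these were -0.39 ± 0.14, adjusted p = 0.683 and -0.39 ± 0.28, adjusted p = 0.749. The diet effect on these genes was therefore not shown to differ between ConvR and GF mice.

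On chow, ConvR livers had higher C4bp and Cpb2 and lower F11 and Proc than GF livers, so that 2 of 38 members rose and 2 fell, against 2.56% and 2.17% of all genes. The member median was 0.07 with 17 of 38 estimates negative, and with mouse 3 as the lone ConvR chow liver it was -0.15 with 35 negative. The fibrinogen chains, with estimates of 0.89 to 0.94, did not pass; ConvR chow mouse 3 lay among the GF values of each chain. The count was 19 without ConvR chow mouse 3, and 0 without ConvR chow mouse 1, without mouse 2, without GF chow mouse 1, or without ConvR chow mice 1 and 2 together. In ConvD livers F11 alone passed against GF, with 1 member lower and 0 higher (3.34% and 2.26% of all genes). In that comparison 5 of 38 members and 3006 of 12368 genes had an unadjusted p under 0.05, and DESeq2 called 1 member. Against ConvR livers, ConvD livers were lower in Mbl1, C4bp and Cpb2, with 3 members lower and 0 higher (3.24% and 2.20% of all genes). Here 16 of 38 members and 2902 of 12368 genes had an unadjusted p under 0.05, and DESeq2 called 7 members lower and 1 higher. The member median turned from -0.26, with 27 of 38 estimates negative, to 0.10, with 8 negative, when mouse 3 was the lone ConvR chow liver. On log2(TPM + 1), where the median of all genes was 0.21, that comparison had 1 member lower and 9 higher. It had 18 calls without ConvR chow mouse 3, 7 without GF chow mouse 1, and 0 without any 1 of ConvR chow mice 1 and 2 or of the 3 ConvD mice. For the chow comparisons, too, shares of all genes called by other tools or with mice left out are not given. Their shifts in calls cannot be told from general ones.

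On HF/HS, ConvR livers were below GF livers in nearly all members on counts, by small amounts. F11 and F7 fell, 0 rose, and 36 did not pass, against 0.744% of all genes falling and 0.889% rising. An unadjusted p under 0.05 was reached by 17 of 38 members and 1876 of 12368 genes. DESeq2 called 8 members lower. The estimate was negative for 37 of 38 members, and for 23 on log2(TPM + 1), where the median of all genes was 0.16. On counts the median was -0.29 for the members and -0.01 for all genes. CPM ranges of the 2 groups did not overlap for 24 of 38 members, all lower in ConvR, whereas 14.7% of all genes were lower without overlap. This count depended on the scale. On TPM the ranges overlapped for C2, C3, Cfi, Cpb2, F2, F12, F13b, Fga, Masp1, Masp2, Pros1 and Serpinc1 among those 24. C4bp, Cfb, F9 and, narrowly, Mbl1 were wholly higher in ConvR mice on TPM. Of 10 hepatocyte markers, 1 was lower in ConvR (Ahsg, -0.76 ± 0.14, adjusted p = 0.0160), 9 did not pass, and 8 estimates were negative, with a median of -0.48. The list summed to 106530.0 to 113490.0 CPM in ConvR HF/HS and 149030.0 to 153120.0 CPM in GF HF/HS mice, of which Alb alone made 64975 to 72033 and 93606 to 98646 CPM; their part in it was not tested. Calls numbered 5 without ConvR chow mouse 3, 4 without ConvR HF/HS mouse 3, 7 with these 2 groups fitted alone, and 1 without GF chow mouse 2, ConvD mouse 1 or 3, any of the GF HF/HS mice, or ConvR HF/HS mouse 1 or 2. Shares of all genes called in these settings and by DESeq2 are not given here. The member counts alone cannot tell a shift of these genes from a general one.

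**Figure D3:**
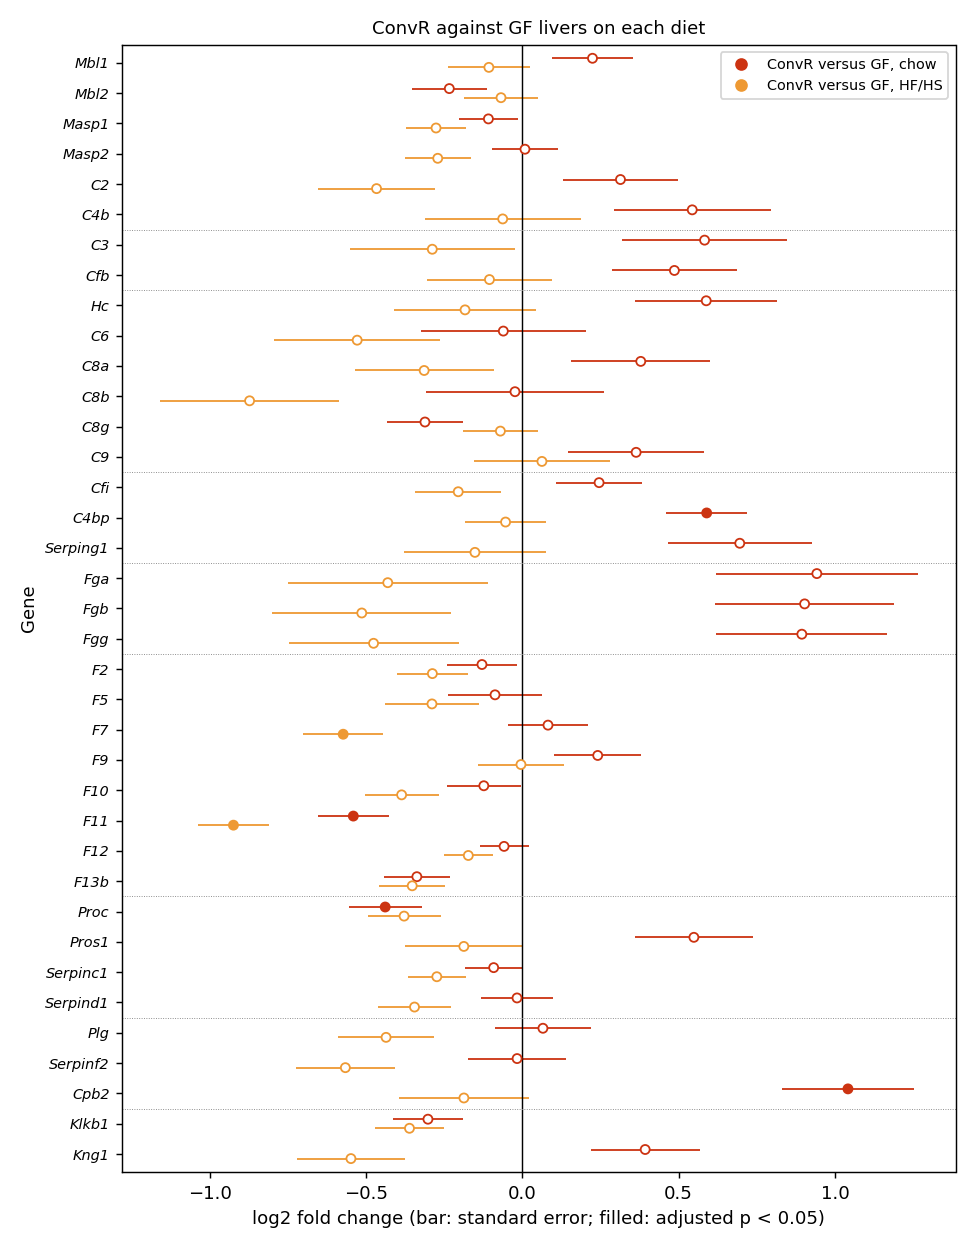
Log2 fold change of ConvR over GF livers with its standard error, on chow (red) and on HF/HS (orange), for the members other than Cfd; filled points had an adjusted p under 0.05. On HF/HS every point but that of C9 lies left of 0 on counts (23 of 38 members on log2(TPM + 1)), whereas on chow points lie on both sides, from F11 at -0.54 to Cpb2 at 1.04.

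Among the lectin and classical pathway genes, Mbl1 and C2 fell and Mbl2 rose with HF/HS in ConvR mice, and Masp1, Masp2 and C4b did not pass in any comparison. Mbl1 and Mbl2 encode the mannose-binding lectins that recognise microbial sugars. On chow, Mbl1 stood at 270.0, 199 and 217 CPM in GF mice, 269.8, 306 and 226 in ConvR mice and 183, 178 and 182 in ConvD mice. On HF/HS, Mbl1 stood at 185, 177 and 186 CPM in GF mice and 164, 150 and 195 in ConvR mice. In CPM, all 3 ConvR chow mice lay above every ConvD and HF/HS mouse and overlapped the GF chow mice. On TPM, ConvR HF/HS mouse 3 (378.3) was above ConvR chow mouse 3 (375.6). Both calls of Mbl1, given next, were lost on log2(TPM + 1), and that of ConvD against ConvR mice was lost under 9 of 24 alternatives. Mbl1 fell with HF/HS in ConvR mice (-0.66 ± 0.13, adjusted p = 0.00482; with ConvR chow mouse 3 alone, -0.42 ± 0.16, adjusted p = 0.180) and was lower in ConvD than in ConvR chow mice (-0.56 ± 0.13, adjusted p = 0.0302; -0.32 ± 0.16, adjusted p = 0.529 with mouse 3 alone). On chow, Mbl2 stood at 233, 212 and 211 CPM in GF mice, 158, 191 and 209 in ConvR mice and 206, 191 and 174 in ConvD mice. On HF/HS, Mbl2 stood at 271, 259.6 and 296 CPM in GF mice and 228, 297 and 264 in ConvR mice. Mbl2 ran the other way, with every ConvR HF/HS mouse above every ConvR chow mouse (0.50 ± 0.12, adjusted p = 0.0132; with mouse 3 alone, 0.33 ± 0.15, adjusted p = 0.248). The ratio of Mbl1 to Mbl2 in TPM was 1.22 ± 0.129 (SD, n = 3) in GF chow, 1.72 ± 0.392 in ConvR chow, 1.12 ± 0.0945 in ConvD, 0.778 ± 0.0363 in GF HF/HS and 0.767 ± 0.151 in ConvR HF/HS mice, so that no HF/HS library reached the lowest chow library.

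C2 is the protease of the classical and lectin C3 convertase. On chow, C2 stood at 112, 120.0 and 107 CPM in GF mice, 159, 168 and 95.2 in ConvR mice and 122, 101 and 117 in ConvD mice. On HF/HS, C2 stood at 106, 88.2 and 84.5 CPM in GF mice and 64.3, 55.4 and 81.8 in ConvR mice. In CPM, the 3 ConvR HF/HS mice were the lowest of the 15. On TPM, ConvR HF/HS mouse 3 (52.1) was above ConvR chow mouse 3 (51.9) and GF HF/HS mouse 3 (50.2). C2 fell with HF/HS in ConvR mice (-1.07 ± 0.19, adjusted p = 0.00238). Among 24 alternatives this call was lost only with mouse 3 as the lone ConvR chow liver (-0.50 ± 0.19). C4b, which encodes the other part of that convertase, ranged from 1019 to 2546 CPM, with ConvR chow mice 1 and 2 highest and mouse 3 lowest of all 15; its near-identical copy C4a makes the split of reads between them uncertain. Masp1 and Masp2, the proteases bound to the lectins, ranged from 70.9 to 100.9 and from 183 to 248 CPM.

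C3, on which the pathways converge, and Cfb, the protease of the alternative convertase, fell with HF/HS in ConvR mice, while Cfd rose on HF/HS in both ConvR and GF mice. On chow, C3 stood at 7020.2, 7364 and 6600.2 CPM in GF mice, 11584, 14467 and 5387 in ConvR mice and 8114, 7015 and 6507 in ConvD mice. On HF/HS, C3 stood at 6079, 6049.9 and 6573 CPM in GF mice and 5039.9, 4283 and 5998 in ConvR mice. ConvR chow mice 1 and 2 exceeded all others, and mouse 3 lay within the ConvR HF/HS range. The change with diet in ConvR mice was -1.04 ± 0.27, adjusted p = 0.0187, and with mouse 3 alone -0.08 ± 0.20, adjusted p = 0.866. On chow, Cfb stood at 1418, 1253 and 1070.0 CPM in GF mice, 1951, 2197 and 1094 in ConvR mice and 1299, 1157 and 1251 in ConvD mice. On HF/HS, Cfb stood at 1091, 1077 and 1115 CPM in GF mice and 988, 919 and 1146 in ConvR mice. The same mice were high, and the corresponding values were -0.78 ± 0.20, adjusted p = 0.0184, and -0.10 ± 0.17, adjusted p = 0.773.

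Cfd encodes factor D (adipsin), the protease that activates factor B, and in mice is made mainly by fat. On chow, Cfd stood at 0.826, 0.229 and 0.532 CPM in GF mice, 0.165, 0 and 1.15 in ConvR mice and 0.914, 1.63 and 1.05 in ConvD mice. On HF/HS, Cfd stood at 11.5, 3.15 and 3.67 CPM in GF mice and 3.20, 5.69 and 2.41 in ConvR mice. All 6 HF/HS livers were above all 9 chow livers. The counts behind these values were few, at 3, 0 and 19 in ConvR chow mice and 53.0 to 228 in HF/HS mice; the 0 allows up to 0.181 CPM, by counting error alone. Cfd rose with HF/HS in ConvR mice (3.10 ± 0.77, adjusted p = 0.0154; 1.70 ± 0.85, adjusted p = 0.294 with mouse 3 alone) and in GF mice (3.56 ± 0.73, adjusted p = 0.0114), where the call was lost without GF HF/HS mouse 1 (adjusted p = 0.0523). Of 5 adipocyte markers, Plin1 had no count in any library, Lep had 1 count in all, and Adipoq and Retn had at most 3 and 1 per library. The summed level of the list was 0.0603 to 0.814 CPM in the chow groups, 0.473 to 1.92 in GF HF/HS and 1.55 to 13.2 CPM in ConvR HF/HS mice, carried by Cidea, a lipid droplet protein. Cidea changed by 4.44 ± 0.89, adjusted p = 0.00499 with HF/HS in ConvR mice (3.05 ± 1.15, adjusted p = 0.171 with mouse 3 alone), and its relation to Cfd was not tested.

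Terminal pathway genes, whose products form the membrane attack complex, were among the members that fell most with HF/HS in ConvR mice: Hc, C6, C8a, C8b and C9 fell and C8g did not pass (0.14 ± 0.12, adjusted p = 0.476). On chow, C8b stood at 575, 454 and 464 CPM in GF mice, 558, 522 and 389.6 in ConvR mice and 376, 337 and 405 in ConvD mice. On HF/HS, C8b stood at 309, 293 and 243 CPM in GF mice and 139.8, 78.2 and 244 in ConvR mice. Every HF/HS liver was below every chow liver, and ConvR HF/HS mouse 2 had the lowest value. C8b, the beta chain of C8, changed by -1.67 ± 0.29, adjusted p = 0.00229 with HF/HS in ConvR mice and by -0.82 ± 0.29, adjusted p = 0.0836 in GF mice. With ConvR chow mouse 3 alone the ConvR value was -1.34 ± 0.38, adjusted p = 0.0835, the only one of 24 alternatives that lost this call.

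C6 joins C5b and C7 at the start of pore assembly. On chow, C6 stood at 491, 368 and 319 CPM in GF mice, 436, 393 and 300.0 in ConvR mice and 327, 264 and 337 in ConvD mice. On HF/HS, C6 stood at 281, 258 and 205 CPM in GF mice and 147, 108 and 261 in ConvR mice. In CPM, ConvR HF/HS mice lay below all ConvR chow mice, and ConvR HF/HS mouse 3 reached into the range of the GF HF/HS mice. On TPM, ConvR HF/HS mouse 3 (154.5) was above ConvR chow mouse 3 (151.9). C6 fell in ConvR mice (-1.13 ± 0.27, adjusted p = 0.0123; -0.80 ± 0.36, adjusted p = 0.246 with mouse 3 alone) and changed by -0.66 ± 0.26, adjusted p = 0.127 in GF mice. On chow, C9 stood at 532, 483 and 469.7 CPM in GF mice, 740.4, 702 and 469 in ConvR mice and 526, 437 and 509 in ConvD mice. On HF/HS, C9 stood at 388, 356 and 325 CPM in GF mice and 422, 229.6 and 466 in ConvR mice. C9, the subunit that lines the pore, fell in ConvR mice (-0.77 ± 0.22, adjusted p = 0.0295). With ConvR chow mouse 3 alone the value was -0.33 ± 0.28. In CPM, the highest ConvR HF/HS mouse was just under the lowest ConvR chow mouse. On TPM, ConvR HF/HS mice 1 (441) and 3 (451) were above ConvR chow mouse 3 (389).

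Hc is the mouse gene of C5, the source of C5a and C5b. On chow, Hc stood at 1185, 1265 and 1009.9 CPM in GF mice, 2145, 2019.5 and 1039 in ConvR mice and 1263, 1063 and 1182 in ConvD mice. On HF/HS, Hc stood at 1034, 938 and 924 CPM in GF mice and 831, 661 and 1059 in ConvR mice. ConvR chow mice 1 and 2 were highest and mouse 3 overlapped the HF/HS mice, and the change was -1.03 ± 0.23, adjusted p = 0.00882, or -0.29 ± 0.21, adjusted p = 0.491 with mouse 3 alone. On chow, C8a stood at 1016, 934 and 809 CPM in GF mice, 1379, 1359 and 850.3 in ConvR mice and 853, 804 and 899 in ConvD mice. On HF/HS, C8a stood at 927, 801 and 732 CPM in GF mice and 581, 475 and 923 in ConvR mice. C8a, the alpha chain of C8, showed the same arrangement, with -0.86 ± 0.22, adjusted p = 0.0202, or -0.37 ± 0.27, adjusted p = 0.498 with mouse 3 alone.

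The 3 chains of C8 come from separate genes and did not keep one ratio. C8b over C8g in TPM was 0.968, 0.779 and 0.722 in GF chow, 1.28, 1.19 and 0.658 in ConvR chow and 0.710, 0.608 and 0.771 in ConvD mice. On HF/HS it was 0.573, 0.508 and 0.421 in GF and 0.244, 0.169 and 0.421 in ConvR mice, all below every chow library. C8b over C8a likewise averaged 0.893 ± 0.0795 (SD, n = 3) in GF chow, 0.685 ± 0.0629 in ConvR chow, 0.719 ± 0.0262 in ConvD, 0.567 ± 0.0314 in GF HF/HS and 0.368 ± 0.0860 in ConvR HF/HS mice. A ratio within a library does not depend on the scaling between libraries; these ratios, like those of the mannose-binding lectins and of the fibrinogen chains, were chosen after their values were seen and are given without a test.

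**Figure D4:**
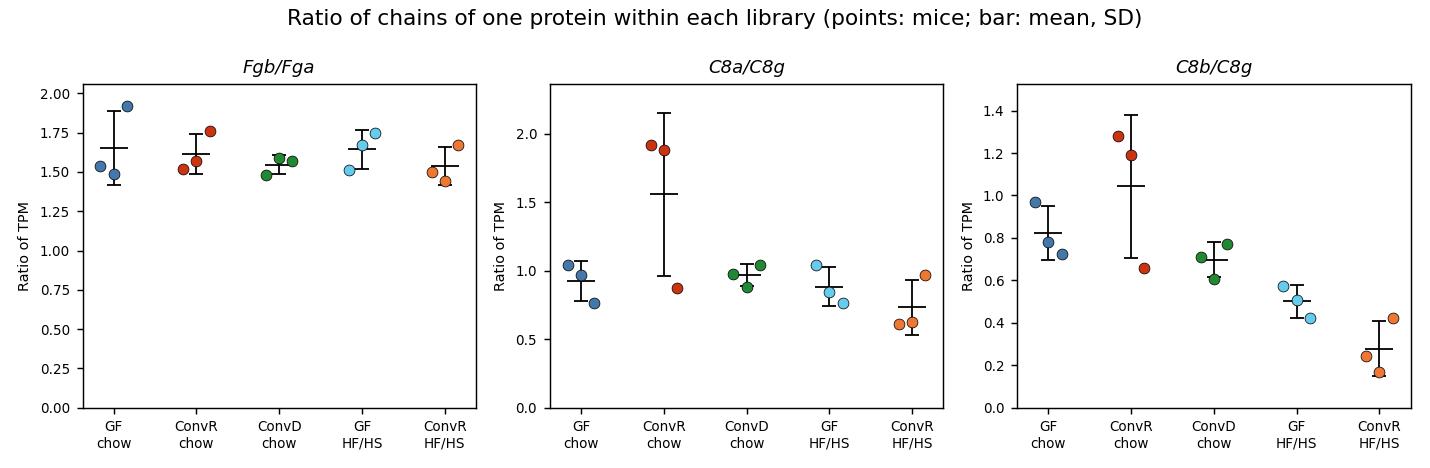
Ratios of TPM of chains of 1 protein in every liver (points), with the group mean and SD (bars), for fibrinogen (Fgb over Fga) and C8 (C8a and C8b over C8g). The fibrinogen ratio has group means of 1.53 to 1.65, while C8b over C8g has a mean of 0.823 in GF chow and 0.278 in ConvR HF/HS mice.

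In CPM, complement inhibitors were highest in ConvR chow mice 1 and 2 in all 3 cases. On TPM, ConvD mouse 1 (457) was above ConvR chow mouse 2 (447) in Cfi. On chow, C4bp stood at 514, 537 and 514 CPM in GF mice, 857, 908 and 589.9 in ConvR mice and 520.1, 535 and 522 in ConvD mice. On HF/HS, C4bp stood at 572, 549 and 549 CPM in GF mice and 541, 499.8 and 568 in ConvR mice. In CPM, all 3 ConvR chow mice were above the 12 others in C4bp, the alpha chain of the protein that speeds decay of the C4b and C2 complex. On TPM, ConvR chow mouse 3 (457) was below every HF/HS mouse (461 to 530). C4bp was higher in ConvR than in GF chow mice (0.59 ± 0.13, adjusted p = 0.0273; 0.18 ± 0.11, adjusted p = 0.639 with mouse 3 alone), lower in ConvD than in ConvR mice (-0.58 ± 0.13, adjusted p = 0.0256; -0.17 ± 0.11, adjusted p = 0.644 with mouse 3 alone) and lower on HF/HS in ConvR mice (-0.55 ± 0.13, adjusted p = 0.0122; -0.14 ± 0.11, adjusted p = 0.510 with mouse 3 alone). Cfi, the protease that inactivates C3b and C4b, ranged from 431 to 709.6 CPM and fell with HF/HS in ConvR mice (-0.45 ± 0.14, adjusted p = 0.0411; -0.09 ± 0.15, adjusted p = 0.784 with mouse 3 alone), a call lost under 16 of 24 alternatives. Serping1, the inhibitor of C1 and of kallikrein, ranged from 464 to 1223 CPM and did not pass in any comparison; it had the widest range among the 14 members without a call, with the highest library at 2.64 times the lowest.

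Fibrinogen is built from 3 chains whose genes lie together on chromosome 3. The 250 bases before the start site of each are shown because these genes moved together and are known acute phase genes. RefSeq promoter windows of the build GRCm38.p6 were matched to 29 of the 38 members and searched on both strands for TTCCNGGAA (a STAT factor motif), CTGGGAA (the type II interleukin-6 element) and TTNNGNAAT (a C/EBP motif). Capitals mark matches, and each window is printed on the strand of its gene, 5′ to 3′: chr3:83025903-83026152 (plus strand) for Fga, chr3:83049864-83050113 (minus strand) for Fgb and chr3:83007474-83007723 (plus strand) for Fgg.
Fga: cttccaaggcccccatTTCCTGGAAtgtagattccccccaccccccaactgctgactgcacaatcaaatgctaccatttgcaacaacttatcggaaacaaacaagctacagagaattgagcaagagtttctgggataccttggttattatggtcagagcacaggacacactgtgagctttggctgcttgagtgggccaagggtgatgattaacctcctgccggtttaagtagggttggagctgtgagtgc
Fgb: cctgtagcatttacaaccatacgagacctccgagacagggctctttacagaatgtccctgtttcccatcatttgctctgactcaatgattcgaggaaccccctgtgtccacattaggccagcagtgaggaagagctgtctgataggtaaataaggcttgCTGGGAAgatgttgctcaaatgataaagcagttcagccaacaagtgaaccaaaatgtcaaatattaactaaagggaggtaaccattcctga
Fgg: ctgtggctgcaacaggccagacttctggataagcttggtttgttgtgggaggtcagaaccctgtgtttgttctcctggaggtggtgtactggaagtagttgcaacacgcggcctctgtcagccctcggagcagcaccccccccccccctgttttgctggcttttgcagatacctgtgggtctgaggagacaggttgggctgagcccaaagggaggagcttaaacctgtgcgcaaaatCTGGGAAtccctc

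In Fga the STAT motif began 234 bases before the start. The type II element began 91 bases before the start in Fgb and 13 bases before it in Fgg. Among all 32851 windows of the table, 0.91% held the STAT motif, 9.10% the type II element and 10.2% the C/EBP motif. Members with a match numbered 2 for STAT (Fga and Pros1), 4 for the type II element (Masp2, Fgb, Fgg and F9) and 5 for C/EBP (C3, C6, C9, F13b and Klkb1), and no matches overlapped. A match describes the letters only.

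On chow, Fgb stood at 5338, 4345 and 3738 CPM in GF mice, 9184, 11803 and 4113 in ConvR mice and 4718, 4127 and 3831 in ConvD mice. On HF/HS, Fgb stood at 5163, 4991 and 4794 CPM in GF mice and 3305, 2900.1 and 4268 in ConvR mice. ConvR chow mice 1 and 2 stood above all 13 others, and mouse 3 lay within the GF chow and ConvR HF/HS ranges. On chow, Fga stood at 6107, 5259.7 and 3521 CPM in GF mice, 10858, 13534 and 4215 in ConvR mice and 5692, 4664 and 4369.6 in ConvD mice. On HF/HS, Fga stood at 6151, 5331 and 4910.1 CPM in GF mice and 3946, 3622 and 4598 in ConvR mice. In Fga, too, the pair was highest, and GF chow mouse 3 was the lowest. On chow, Fgg stood at 3963, 3514 and 3100.1 CPM in GF mice, 7044, 9288 and 3328 in ConvR mice and 3789, 3224 and 2999 in ConvD mice. On HF/HS, Fgg stood at 4129.7, 3995 and 3748 CPM in GF mice and 2617, 2463 and 3459 in ConvR mice. The gamma chain followed the same order in the ConvR groups.

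All 3 chains fell with HF/HS in ConvR mice, by -1.23 ± 0.32, adjusted p = 0.0210 for Fga, -1.26 ± 0.29, adjusted p = 0.0104 for Fgb and -1.20 ± 0.28, adjusted p = 0.0102 for Fgg. With ConvR chow mouse 3 alone the values were -0.06 ± 0.27, adjusted p = 0.934 for Fga, -0.24 ± 0.23, adjusted p = 0.614 for Fgb and -0.23 ± 0.21, adjusted p = 0.594 for Fgg. Between ConvR and GF chow mice they were 0.94 ± 0.32, adjusted p = 0.0988, 0.90 ± 0.29, adjusted p = 0.0810 and 0.89 ± 0.27, adjusted p = 0.0728 in the same order, and with mouse 3 alone -0.24 ± 0.27, adjusted p = 0.804, -0.12 ± 0.23, adjusted p = 0.894 and -0.09 ± 0.21, adjusted p = 0.926. In HF/HS mice, all 3 ConvR CPM values were below all 3 GF values for each chain, with -0.43 ± 0.32, -0.51 ± 0.29 and -0.48 ± 0.27, none of which passed. On TPM the ranges of Fga overlapped. Fgb over Fga in TPM averaged 1.53 to 1.65 over the 5 groups and ran from 1.44 to 1.92 in single livers, and Fgg over Fga averaged 1.26 to 1.36 and ran from 1.18 to 1.65. GF chow mouse 3 had the highest value of both ratios, and that group the largest SDs, 0.235 and 0.252.

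**Figure D5:**
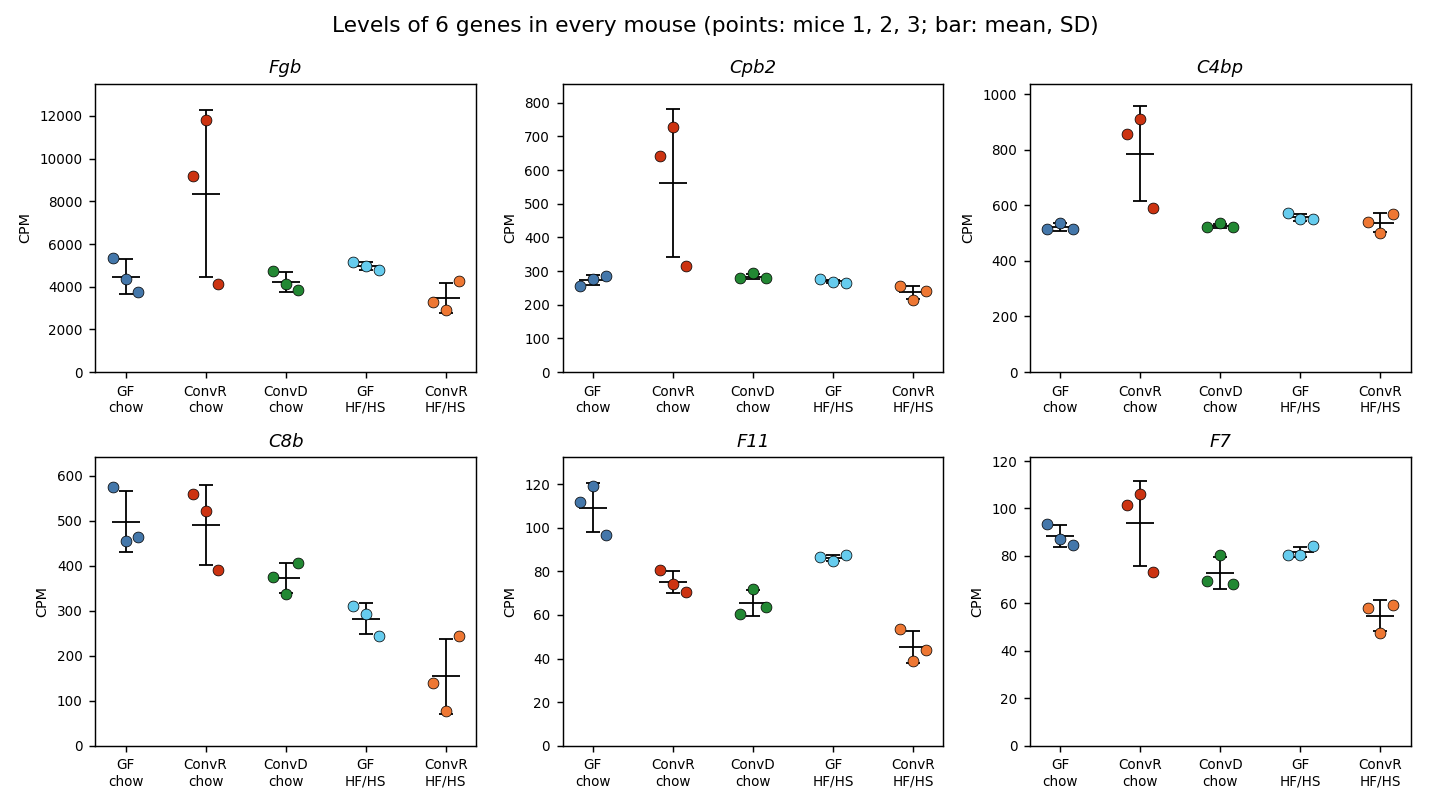
CPM of 6 genes in every liver (points, mice 1 to 3 from left to right), with the group mean and SD (bars), on axes that start at 0. Fgb and Cpb2 are high in ConvR chow mice 1 and 2, C8b is lower in every HF/HS liver than in every chow liver, and F11 and F7 have their 3 lowest values in ConvR HF/HS mice.

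Among 8 coagulation factors, F11 had the most calls, with lower levels in 4 comparisons. F11 encodes factor XI, a protease precursor of the contact pathway that activates factor IX. On chow, F11 stood at 112, 119 and 96.8 CPM in GF mice, 80.7, 74.2 and 70.4 in ConvR mice and 60.5, 72.0 and 63.7 in ConvD mice. On HF/HS, F11 stood at 86.4, 84.9 and 87.5 CPM in GF mice and 53.4, 39.1 and 43.9 in ConvR mice. The 3 GF chow mice were the highest of 15 and the 3 ConvR HF/HS mice the lowest. Group means fell in the order 109 ± 11.4 CPM (SD, n = 3) in GF chow, 86.3 ± 1.31 in GF HF/HS, 75.1 ± 5.21 in ConvR chow, 65.4 ± 5.95 in ConvD and 45.5 ± 7.30 in ConvR HF/HS mice, and only ConvR chow and ConvD overlapped among neighbours in that order (-0.20 ± 0.11, adjusted p = 0.307). On TPM these neighbours changed places, with 46.5 ± 4.06 TPM in ConvR chow and 49.0 ± 4.99 in ConvD mice. On that scale the 2 ConvR groups also overlapped narrowly, with 43.6 TPM in ConvR HF/HS mouse 1 and 43.1 in ConvR chow mouse 2.

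F11 was lower in ConvR than in GF mice on chow (-0.54 ± 0.11, adjusted p = 0.0227) and on HF/HS (-0.92 ± 0.11, adjusted p = 0.00280), lower in ConvD than in GF mice (-0.74 ± 0.11, adjusted p = 0.00633), and lower on HF/HS than on chow in ConvR mice (-0.72 ± 0.11, adjusted p = 0.00142). The fall on HF/HS against GF mice was the only member call kept under all 24 alternatives, with an adjusted p of at most 0.0230. The call against GF on chow was lost with ConvR chow mouse 3 alone (-0.64 ± 0.17) and with the 2 groups fitted alone. It was also lost without GF chow mouse 1 or either of ConvR chow mice 1 and 2. That of ConvD was lost with the 2 groups fitted alone (adjusted p = 0.0626), and that of diet with mouse 3 alone (-0.63 ± 0.16). With and without ConvR chow mice 1 and 2 these estimates had the same sign. In GF mice the diet gave -0.34 ± 0.11, adjusted p = 0.0722. Klkb1, which encodes the related plasma prekallikrein and lies next to F11 on chromosome 8, passed in no comparison and gave -0.30 ± 0.11, adjusted p = 0.122 and -0.36 ± 0.11, adjusted p = 0.117 for ConvR against GF mice on chow and on HF/HS.

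The window of F11, chr8:45262032-45262281 on the minus strand of GRCm38.p6, is shown because this gene changed in the most comparisons; it held none of the 3 motifs, and so has no capitals.
F11: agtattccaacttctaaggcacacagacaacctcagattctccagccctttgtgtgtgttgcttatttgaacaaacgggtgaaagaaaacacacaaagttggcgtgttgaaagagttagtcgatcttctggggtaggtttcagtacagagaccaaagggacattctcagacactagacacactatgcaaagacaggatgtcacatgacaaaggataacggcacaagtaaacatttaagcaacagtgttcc

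F7 encodes factor VII, the protease that starts clotting with tissue factor. On chow, F7 stood at 93.7, 87.2 and 84.7 CPM in GF mice, 102, 106 and 73.3 in ConvR mice and 69.5, 80.6 and 68.2 in ConvD mice. On HF/HS, F7 stood at 80.5, 80.5 and 84.0 CPM in GF mice and 58.1, 47.4 and 59.2 in ConvR mice. ConvR HF/HS mice were the lowest 3 of the 15, whereas ConvR chow mice 1 and 2 were the highest. F7 fell with HF/HS in ConvR mice (-0.77 ± 0.13, adjusted p = 0.00180; -0.42 ± 0.13, adjusted p = 0.112 with mouse 3 alone) and was lower in ConvR than in GF mice on HF/HS (-0.57 ± 0.13, adjusted p = 0.0379), a call lost under 11 of 24 alternatives, with an adjusted p of up to 0.180. F10, its neighbour on chromosome 8 and the gene of factor X, gave -0.33 ± 0.12, adjusted p = 0.0731 and -0.39 ± 0.12, adjusted p = 0.117 in these comparisons. F5 ranged from 411 to 767 CPM and rose with HF/HS in GF mice as given above, a call lost under 11 of 24 alternatives, with 0.33 ± 0.15, adjusted p = 0.155 in ConvR mice. The other factors passed in no comparison: F2, the gene of prothrombin, ranged from 1258 to 1932 CPM, F9 from 134 to 232, F12 from 353 to 428 and F13b, the carrier subunit of factor XIII, from 126 to 212 CPM. F12 varied least of the 14 members without a call, with the highest library at 1.22 times the lowest.

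Of the anticoagulants, Pros1 fell with HF/HS in ConvR mice and Proc was lower in ConvR than in GF chow mice. On chow, Pros1 stood at 45.4, 60.7 and 49.2 CPM in GF mice, 89.1, 91.5 and 46.6 in ConvR mice and 48.4, 45.6 and 51.7 in ConvD mice. On HF/HS, Pros1 stood at 53.5, 49.6 and 51.6 CPM in GF mice and 43.9, 43.9 and 48.0 in ConvR mice. ConvR chow mice 1 and 2 were far above the other 13, among which values ran from 43.9 to 60.7 CPM. Pros1, the gene of protein S, changed by -0.74 ± 0.19, adjusted p = 0.0179 with HF/HS in ConvR mice, and by -0.04 ± 0.14, adjusted p = 0.908 with mouse 3 alone. Its window, chr16:62854057-62854306 on the plus strand of GRCm38.p6, is shown as the other member with the STAT motif, which began 92 bases before the start.
Pros1: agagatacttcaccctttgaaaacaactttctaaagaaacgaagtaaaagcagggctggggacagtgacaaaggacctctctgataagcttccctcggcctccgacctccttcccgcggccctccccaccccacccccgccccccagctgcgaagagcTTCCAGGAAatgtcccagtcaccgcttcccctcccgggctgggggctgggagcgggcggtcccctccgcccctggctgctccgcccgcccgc

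Proc, the gene of protein C, ranged from 311 to 617 CPM; its difference on chow (-0.44 ± 0.12, adjusted p = 0.0466; -0.34 ± 0.17, adjusted p = 0.583 with mouse 3 alone) was lost under 17 of 24 alternatives. Serpinc1, the gene of antithrombin, and Serpind1, that of heparin cofactor II, ranged from 1576 to 1960.4 and from 396 to 604 CPM and had no call. Proc and Pros1 belong with F2, F7, F9 and F10 to the vitamin K-dependent members, of which 0 of 6 rose and 2 fell with HF/HS in ConvR mice (6.77% and 7.78% of all genes); both calls, F7 and Pros1, were lost with mouse 3 alone. Ggcx, the carboxylase that modifies these proteins, and Vkorc1, which recycles vitamin K, did not pass in that comparison (-0.23 ± 0.12, adjusted p = 0.210, and -0.20 ± 0.09, adjusted p = 0.163).

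In fibrinolysis, Cpb2 had 3 calls and Serpinf2 had 1. Cpb2 encodes the plasma carboxypeptidase that protects fibrin from plasmin. On chow, Cpb2 stood at 256, 277 and 285 CPM in GF mice, 642, 728 and 314 in ConvR mice and 279, 293 and 279 in ConvD mice. On HF/HS, Cpb2 stood at 275, 268 and 265 CPM in GF mice and 254, 215 and 240.2 in ConvR mice. In CPM, all 3 ConvR chow mice were above the 12 others, with mouse 3 close to them. The 3 ConvR HF/HS mice were the lowest, narrowly, with 254.2 CPM in mouse 1 against 255.7 in GF chow mouse 1. On TPM, ConvR chow mouse 3 (314) lay below the ConvD mice (320 to 346), and GF chow mouse 1 (281) was lowest. Cpb2 was higher in ConvR than in GF chow mice (1.04 ± 0.21, adjusted p = 0.0195; 0.20 ± 0.11, adjusted p = 0.621 with mouse 3 alone), lower in ConvD than in ConvR mice (-0.98 ± 0.21, adjusted p = 0.0210; -0.14 ± 0.11, adjusted p = 0.716 with mouse 3 alone) and lower with HF/HS in ConvR mice (-1.25 ± 0.21, adjusted p = 0.00196; -0.41 ± 0.11, adjusted p = 0.0726 with mouse 3 alone).

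Serpinf2 encodes the inhibitor of plasmin. On chow, Serpinf2 stood at 871, 960.3 and 783 CPM in GF mice, 920.5, 1019 and 645 in ConvR mice and 754, 755 and 692 in ConvD mice. On HF/HS, Serpinf2 stood at 893, 794 and 829 CPM in GF mice and 610.0, 467 and 623 in ConvR mice. In CPM, the 3 ConvR HF/HS mice were again the lowest. On TPM, ConvR chow mouse 3 (427) was below ConvR HF/HS mice 1 (510) and 3 (482). The change with HF/HS in ConvR mice was -0.60 ± 0.16, adjusted p = 0.0204, or -0.19 ± 0.17 with ConvR chow mouse 3 alone. Plg, the gene of plasminogen, ranged from 1632 to 3016 CPM and gave -0.47 ± 0.15, adjusted p = 0.0549. Kng1, which encodes the kininogen that releases bradykinin, has a near-identical copy, Kng2, so that its reads are uncertain. On chow, Kng1 stood at 1306, 1715 and 1416 CPM in GF mice, 2131, 2334 and 1361 in ConvR mice and 1510.1, 1732 and 1479 in ConvD mice. On HF/HS, Kng1 stood at 1961, 1980.2 and 1895 CPM in GF mice and 1261, 1264 and 1467 in ConvR mice. ConvR chow mice 1 and 2 were highest, and the fall with HF/HS in ConvR mice (-0.55 ± 0.17, adjusted p = 0.0498; -0.03 ± 0.17, adjusted p = 0.936 with mouse 3 alone) was lost under 19 of 24 alternatives.

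A list of 55 other genes of these systems was examined beside the members; 54 were in the files and 50 were tested. With HF/HS in ConvR mice 3 rose and 8 fell, against 6.77% and 7.78% of all genes. Among those that fell were C4a (-2.74 ± 0.34, adjusted p = 0.000305; -2.06 ± 0.40, adjusted p = 0.0232 with mouse 3 alone) and Susd4, a membrane complement inhibitor (-1.63 ± 0.22, adjusted p = 0.000568; -1.55 ± 0.31, adjusted p = 0.0269 with mouse 3 alone). Serpina10, the inhibitor that acts on factor X with protein Z, fell too (-1.69 ± 0.31, adjusted p = 0.00328; -0.39 ± 0.17, adjusted p = 0.246 with mouse 3 alone), from 469, 632 and 171 CPM in ConvR chow to 121, 128 and 145 in ConvR HF/HS mice, so that mice 1 and 2 of the chow group stood above mouse 3. Proz, the gene of protein Z, fell as well (-0.45 ± 0.08, adjusted p = 0.00346; -0.30 ± 0.10, adjusted p = 0.126 with mouse 3 alone). With HF/HS in GF mice 3 rose and 2 fell, against 4.12% and 5.45% of all genes, among them Tfpi, the tissue factor pathway inhibitor, which rose (0.59 ± 0.11, adjusted p = 0.00787). Between ConvR and GF mice on HF/HS, 1 rose and 2 fell, against 0.889% and 0.744% of all genes; those that fell were Susd4 (-1.49 ± 0.22, adjusted p = 0.00613) and Proz (-0.46 ± 0.08, adjusted p = 0.0167).

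On chow, 4 of the 50 were higher and 1 lower in ConvR than in GF mice, against 2.56% and 2.17% of all genes. The higher included C4a (1.81 ± 0.33, adjusted p = 0.0146; 1.12 ± 0.40, adjusted p = 0.483 with mouse 3 alone) and Serpina10 (1.33 ± 0.31, adjusted p = 0.0326; 0.02 ± 0.18, adjusted p = 0.980 with mouse 3 alone). In Serpina10, mouse 3 lay within the GF chow values of 206, 153 and 146 CPM. ConvD mice had 1 gene higher and 1 lower than GF mice, against 2.26% and 3.34% of all genes, the higher being Cd55, which speeds decay of C3 convertases (0.63 ± 0.13, adjusted p = 0.0189). Against ConvR chow mice, ConvD mice had 0 of the 50 higher and 3 lower, against 2.20% and 3.24% of all genes, which were C4a, Crp and Serpina10; with mouse 3 alone their adjusted p values were 0.279, 0.530 and 0.708. The interaction was called for 0 of 50 in edgeR, with 16 of these 50 and 1572 of 12368 genes at an unadjusted p under 0.05.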

How the data were processed

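Messenger RNA of 15 mouse livers was sequenced from libraries made with a stranded kit. The authors used Bowtie2, RSEM 1.2.23 and the mouse build mm9, per the submitters' processing notes. The deposited expected counts are RSEM estimates per gene, not scaled between libraries; whether counting used the strand is not given in the sources used here. The deposited TPM values are scaled within a library by gene length. The deposited FPKM values were not used. Genes were named by symbol, and 2 files in another gene order were joined by name.

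The expected counts were rounded and analysed in edgeR 4.0.16 (R 4.3.3), with filterByExpr with a minimum count of 10, TMM scaling, 1 mean for each of the 5 groups over all 15 libraries (10 residual degrees of freedom, biological coefficient of variation 0.149), the two-sided quasi-likelihood F test and Benjamini-Hochberg adjustment over 12368 genes, called under 0.05. Each standard error is the size of the log2 fold change divided by the root of its F value. The labels call the mice biological replicates. Alternatives used DESeq2 1.42.0 size factors and its Wald test, limma 3.58.1 on log2(TPM + 1), no or a stricter filter, a replicate block, removal of a gene length trend, the compared groups alone, each library left out, and ConvR chow mice 1 and 2 left out. The pipeline was tested on simulated data.

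Members and gene lists were chosen with earlier results of these data known. Values in every library are given for the 20 called members with the smallest adjusted p and for 1 of any role without one; up to 4 other pathway genes were named per comparison by smallest adjusted p. Values of 2 of these genes are not reported here.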

Additional observations from a re-analysis of the deposited data

How the results depend on the processing

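Counts of members called were 4 (ConvR against GF on chow), 1 (ConvD against GF), 3 (ConvD against ConvR), 2 (ConvR against GF on HF/HS), 22 (HF/HS against chow in ConvR), 2 (the same in GF) and 0 (interaction). With the DESeq2 Wald test they were 9 for ConvR against GF on chow, 8 for ConvD against ConvR, 8 for ConvR against GF on HF/HS, 4 for diet in GF and 4 for the interaction. On log2(TPM + 1) they were 7, 10, 1 and 1 for ConvR against GF on chow, ConvD against ConvR, ConvR against GF on HF/HS and the interaction. With only the compared groups in the fit they were 0 for each of the 3 comparisons on chow, 7 for ConvR against GF on HF/HS and 6 for diet in ConvR. Without ConvR chow mice 1 and 2 they were 0, 0, 4 and 0 for ConvR against GF on chow, ConvD against ConvR, ConvR against GF on HF/HS and diet in ConvR. With a replicate block, or with the gene length trend removed, ConvR against GF on HF/HS had 1. Leaving out each library in turn gave 0 to 19 for ConvR against GF on chow, 1 to 2 for ConvD against GF, 0 to 18 for ConvD against ConvR, 1 to 5 for ConvR against GF on HF/HS, 7 to 27 for diet in ConvR, 0 to 4 for diet in GF and 0 to 16 for the interaction. The cause of these shifts was not tested. The share of all genes called in each setting is not given, so shifts in these counts cannot be told from shifts over all genes. The remaining counts stayed within 1.5 times the first.

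The replicate block moved no other count by over 1.5 times; the call of ConvR against GF on HF/HS that it lost was F7. Same-numbered mice of different groups were different animals by design, so the following correlations do not test for shared animals. Deviations of same-numbered mice from their group means correlated at -0.23 to 0.25 (median 0.01), and 9 of 30 pairs correlated best with their own number. Over the 34 calls of members and 24 alternatives, 0 reversed, 1 was kept under all and 7 were lost under only 1. Groups of 3 mice limit the precision, and low counts that of Cfd.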
